A study of Mus musculus with 31 samples.

Results

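Neural stem cells and their progeny from the dentate gyrus of mice exposed to midazolam as pups were compared at adulthood and shortly after the exposure. The comparison covers 6 of the 31 samples of the series, taken by their titles. They are the 3 RNA sequencing libraries of MDZ 8w, from exposed mice at 8 weeks of age, and the 3 of MDZ P10, from exposed mice at postnatal day 10. All mice were C57BL/6 with the genotype Nestin-EGFP, in which the nestin promoter drives enhanced green fluorescent protein (EGFP), and EGFP-positive cells of the hippocampal dentate gyrus were sorted by flow cytometry. Mice of both MDZ groups had received midazolam at 10 mg/kg by intraperitoneal injection on postnatal days 7, 8 and 9. The MDZ 8w mice were kept without a running wheel. The series also holds RUN MDZ 8w, exposed mice kept with a wheel, and Control 8w and Control P10, mice given water in place of the drug. These 3 groups are used below as side values. An MDZ 8w library was made from about 30000 cells pooled from 3 to 5 mice, and an MDZ P10 library from 50000 cells of 1 mouse.

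Nestin is an intermediate filament protein of neural stem cells. In the dentate gyrus, radial glia-like stem cells give rise to intermediate progenitors, then to neuroblasts and new granule neurons, and most stem cells become quiescent as the animal matures. EGFP outlasts the activity of the nestin promoter in the first descendants, so the sorted gate holds stem cells together with early progenitors and neuroblasts. Midazolam is a sedative of the benzodiazepine class, and such drugs enhance the response of GABA-A receptors to GABA.

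Levels are in TPM, transcripts scaled to the same total in each library. The MDZ P10 values were deposited as FPKM and each library was divided by its sum to give that total. Differences are MDZ 8w minus MDZ P10 on log2(TPM + 1), a scale that understates the change of low genes, with standard errors (SE) from limma over 3 libraries a group. Adjusted p is Benjamini-Hochberg over all genes tested, and 0.05 was the limit for a gene to pass. Age cannot be told apart from the deposited unit, the number of mice in a library and the number of cells, since each differs between all MDZ 8w and all MDZ P10 libraries. P-values measure the spread between these libraries only. In bulk RNA, fewer cells of a type and less RNA per cell cannot be told apart.

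MDZ 8w libraries listed 16709, 15382 and 15552 genes above 0, and MDZ P10 libraries 18145, 18264 and 18470, of 24062 gene names. The robust SD of the log2 ratio between 2 libraries, over genes at 20 to 50 TPM, was 0.342 to 0.369 within MDZ 8w and 0.129 to 0.143 within MDZ P10. The first principal component held 68.0% of the variance and separated the ages. MDZ 8w replicate 1 lay nearest to the MDZ P10 libraries on it, at 23.6 against 53.9 and 46.9 for replicates 2 and 3. Xist, the RNA that coats the inactive X chromosome, was at 24.5, 107 and 271 TPM in MDZ 8w and below 1 TPM in each MDZ P10 library, while Y-linked genes such as Ddx3y were detected in all 6. The part of sex in the age differences was not tested.

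Stem cell markers were detected in every library of both groups, although the summed level of the radial glia and quiescent stem cell list they belong to was lower, at 5805, 6509 and 4794 TPM in MDZ 8w and 11181, 11656 and 11490 TPM in MDZ P10. Sox2, a transcription factor of neural stem cells, was at 315, 315 and 328 TPM in MDZ 8w and at 413, 427 and 408 TPM in MDZ P10. Hopx, which marks radial glia-like stem cells of this region, was at 342, 393 and 322 TPM in MDZ 8w and at 410, 385 and 356 TPM in MDZ P10. Nes itself was at 43.8, 85.6 and 44.4 TPM in MDZ 8w and at 36.4, 40.5 and 39.7 TPM in MDZ P10. Of 11 red blood cell genes, 9 were listed at 0 in all 3 MDZ 8w libraries and 6 in all 3 MDZ P10 libraries. Genes of other cell types were present as well and are described with their values below.

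Of 12615 genes tested, 5590 passed, which is 44.3%. Of these, 3249 were higher in MDZ 8w (25.8%) and 2341 were lower (18.6%). The 3 MDZ 8w and 3 MDZ P10 libraries did not overlap for 7496 genes (59.4%). Separate groups, given below for single genes, were thus the more frequent outcome. The genes with the largest rises and falls were picked among those without overlap. Falls were larger than rises. Among genes that passed, 933 were lower and 492 higher by at least 1 on the log2 scale, and 60 were lower and 12 higher by at least 3. The median difference over all tested genes was 0.07. In one fit over all 15 sorted libraries, which takes in the more variable Control 8w and RUN MDZ 8w groups, 1745 genes passed, 911 higher and 834 lower. Without MDZ P10 replicates 1, 2 or 3 the count was 3688, 3354 and 3879, and without 1 MDZ 8w library it was 5466 to 6378. Of the genes that passed, none had the opposite sign under any of the 18 alternatives computed. Some of these could not change a sign. Other filters, robust moderation, the replicate block and the fit over all 15 libraries leave the difference itself as it is.

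**Figure D1:**
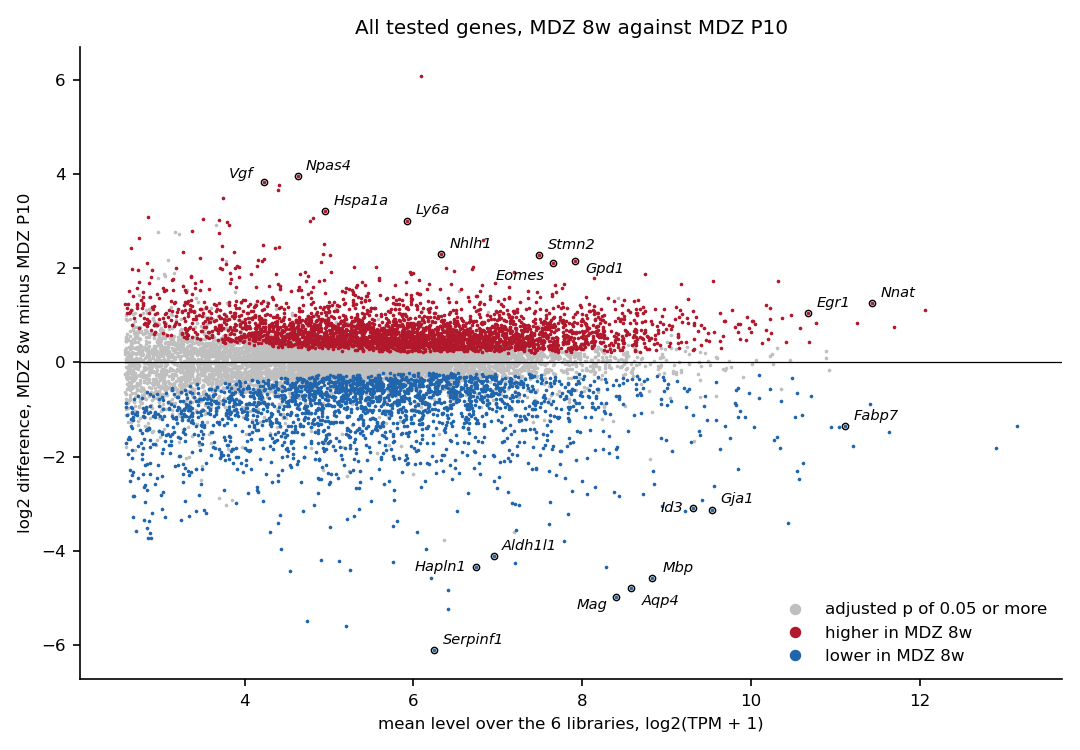
Each point is 1 of 12615 tested genes, with its mean log2(TPM + 1) over the 6 libraries on the x axis and its log2 difference, MDZ 8w minus MDZ P10, on the y axis. Colour marks genes that passed as higher or as lower, and the named genes with the largest falls, such as Serpinf1 at -6.11, lie farther from 0 than most named rises.

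The largest falls were near complete. Serpinf1, which encodes pigment epithelium-derived factor, a secreted anti-angiogenic serpin (mm10 chromosome 11, 75410029 to 75422623), was at 0.824, 0.777 and 2.14 TPM in MDZ 8w and at 145, 159 and 143 TPM in MDZ P10 (log2 -6.11 ± 0.23, adjusted p = 2.3e-05). Pdyn, the precursor of dynorphin opioid peptides, was at 0.220, 0 and 1.59 TPM in MDZ 8w and at 83.9, 66.1 and 62.7 TPM in MDZ P10 (log2 -5.60 ± 0.36). Myoc, the secreted glycoprotein myocilin, was at 0.538, 0 and 0 TPM in MDZ 8w and at 45.5, 65.9 and 42.8 TPM in MDZ P10 (log2 -5.48 ± 0.28). These 3 genes were picked among genes whose groups do not overlap, so their separation follows from the choice. Cd38, an enzyme that consumes NAD, was at 2.32, 3.49 and 1.74 TPM in MDZ 8w and at 72.5, 69.0 and 74.1 TPM in MDZ P10. Slc4a4, a sodium bicarbonate cotransporter, was at 30.6, 33.8 and 22.7 TPM in MDZ 8w and at 363, 418 and 448 TPM in MDZ P10 (log2 -3.79 ± 0.16, adjusted p = 3.0e-05). Hapln1, a link protein of the hyaluronan matrix, was at 10.4, 10.1 and 7.18 TPM in MDZ 8w and at 202, 208 and 201 TPM in MDZ P10 (log2 -4.34 ± 0.14). The 3 libraries of each group differed little from each other for Hapln1, set against the gap between the groups.

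The largest rises, apart from Xist, included neuronal activity and stress genes, which are taken up below. Gpd1, glycerol-3-phosphate dehydrogenase (chromosome 15, 99717587 to 99725014), was at 412, 389 and 377 TPM in MDZ 8w and at 85.8, 89.8 and 86.0 TPM in MDZ P10 (log2 2.16 ± 0.07, adjusted p = 1.7e-05). Lgi1, a secreted synaptic protein linked to epilepsy (chromosome 19, 38264687 to 38308939), was at 50.7, 56.0 and 50.2 TPM in MDZ 8w and at 9.40, 11.1 and 9.45 TPM in MDZ P10 (log2 2.28 ± 0.11, adjusted p = 4.6e-05). Both genes were uniform within each group. Dlx6os1, a long noncoding RNA, and Dlx1, a transcription factor of GABAergic neurons, were less so. Dlx6os1 was at 21.2, 67.3 and 27.4 TPM in MDZ 8w and at 1.18, 0.880 and 3.10 TPM in MDZ P10 (log2 3.77 ± 0.48, adjusted p = 0.0013). MDZ 8w replicate 2 was the highest for both genes, with Dlx1 at 34.2, 88.7 and 28.6 TPM in MDZ 8w and at 7.81, 7.69 and 9.20 TPM in MDZ P10 (log2 2.30 ± 0.39, adjusted p = 0.0038, but adjusted p = 0.0526 in the fit over all 15 libraries). Ptgds, a prostaglandin D synthase, was at 269, 117 and 193 TPM in MDZ 8w and at 28.8, 18.7 and 47.3 TPM in MDZ P10 (log2 2.59 ± 0.39, adjusted p = 0.0024). Ly6a, the surface antigen Sca-1, was at 101, 144 and 76.9 TPM in MDZ 8w and at 15.9, 10.9 and 9.88 TPM in MDZ P10 (log2 3.01 ± 0.26, adjusted p = 0.00031). Car3, carbonic anhydrase 3, was the least even of the large rises, at 22.2, 92.3 and 3.89 TPM in MDZ 8w and below 1 TPM in each MDZ P10 library, and its call was lost without any 1 MDZ P10 library (adjusted p 0.0556 to 0.0648).

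**Figure D2:**
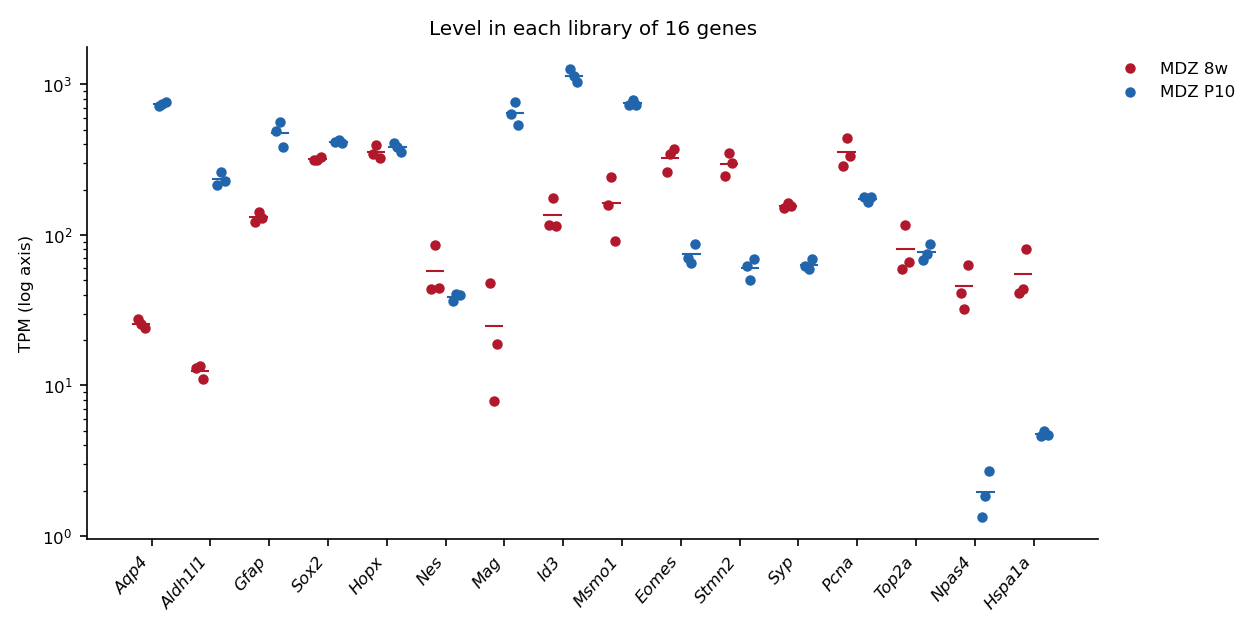
Levels of 16 genes in TPM on a log axis, with MDZ 8w libraries (red) left of MDZ P10 libraries (blue). Dots are single libraries and the lines are group means. The genes include large falls such as Aqp4, genes whose groups overlap such as Hopx and Top2a, and rises such as Npas4.

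Mature astrocyte genes fell nearly as a whole. Of 25 tested, 24 passed as lower and 0 as higher, with a median difference of -1.82 beside 0.07 for all genes. Their summed level was 16748, 16537 and 14313 TPM in MDZ 8w and 50474, 52006 and 50385 TPM in MDZ P10. Aqp4, the water channel of astrocyte endfeet, was at 27.8, 25.4 and 24 TPM in MDZ 8w and at 720, 741 and 758 TPM in MDZ P10 (log2 -4.79 ± 0.08, adjusted p = 1.0e-06). Aldh1l1, a folate enzyme used as a pan-astrocyte marker (chromosome 6, 90550768 to 90599171), was at 13.1, 13.4 and 11.0 TPM in MDZ 8w and at 213, 260 and 226 TPM in MDZ P10 (log2 -4.12 ± 0.12, adjusted p = 9.7e-06). Gja1, the gap junction protein connexin 43, was at 146, 150 and 160 TPM in MDZ 8w and at 1339, 1310 and 1348 TPM in MDZ P10 (log2 -3.12 ± 0.07). For these 3 genes the MDZ 8w libraries lay far below all MDZ P10 libraries. Grin2c, an NMDA receptor subunit, fell as well, at 10.2, 8.42 and 8.68 TPM in MDZ 8w and 116, 119 and 129 TPM in MDZ P10. The exception in the list was S100b, a calcium-binding protein of astrocytes and oligodendrocyte lineage cells, at 205, 33.4 and 94.4 TPM in MDZ 8w and 186, 172 and 168 TPM in MDZ P10 (adjusted p = 0.19). Its groups overlapped through MDZ 8w replicate 1, and without that library it passed as lower (adjusted p = 0.016). Leaving out any 1 of the 6 libraries left 24 or 25 of the 25 lower, and the fit over all 15 libraries called 23.

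Radial glia and quiescent stem cell genes split. Of 23 tested, 13 passed as lower and 3 as higher (median -0.38), and 7 did not pass. Several of the falls were of genes that astrocytes share with radial glia. Gfap, the glial intermediate filament (chromosome 11, 102887336 to 102897200), was at 121, 142 and 129 TPM in MDZ 8w and at 487, 560 and 382 TPM in MDZ P10 (log2 -1.84 ± 0.15, adjusted p = 0.00024). Fabp7, a brain lipid-binding protein, was at 1452, 1388 and 960 TPM in MDZ 8w and at 3313, 3121 and 3094 TPM in MDZ P10 (log2 -1.35 ± 0.16). Tnc, the matrix protein tenascin C (chromosome 4, 63959785 to 64047015), was at 68.1, 158 and 68.2 TPM in MDZ 8w and at 340, 396 and 422 TPM in MDZ P10 (log2 -2.08 ± 0.31). All 3 were lower in every MDZ 8w library, and MDZ 8w replicate 2 had the most Tnc of its group.

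Sox9, Prom1, Hes5, Id4 and Notch2, regulators or surface proteins of neural stem cells, also passed as lower. Sox2 fell by 0.38 on the log2 scale (SE 0.07, adjusted p = 0.0047), a call lost in the fit over all 15 libraries (adjusted p = 0.13). Hopx had a difference of -0.13 ± 0.10 (adjusted p = 0.34), and its MDZ 8w and MDZ P10 libraries overlapped. Nes had 0.49 ± 0.25 (adjusted p = 0.15), without overlap and with MDZ 8w replicate 2 the highest. Vim, another intermediate filament of radial glia, was at 497, 1208 and 320 TPM in MDZ 8w and at 372, 406 and 379 TPM in MDZ P10 (adjusted p = 0.30), and again replicate 2 stood above the others. Emx1, a homeobox gene of the dorsal forebrain, rose, at 147, 165 and 236 TPM in MDZ 8w and 96.9, 90.9 and 104 TPM in MDZ P10 (log2 0.87 ± 0.17, adjusted p = 0.0067). The other two genes that passed as higher, Frzb and Sox1, both lost the call without MDZ P10 replicate 2 and without MDZ P10 replicate 3 (adjusted p 0.0613 to 0.101). The fit over all 15 libraries called 1 higher and 10 lower.

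**Figure D3:**
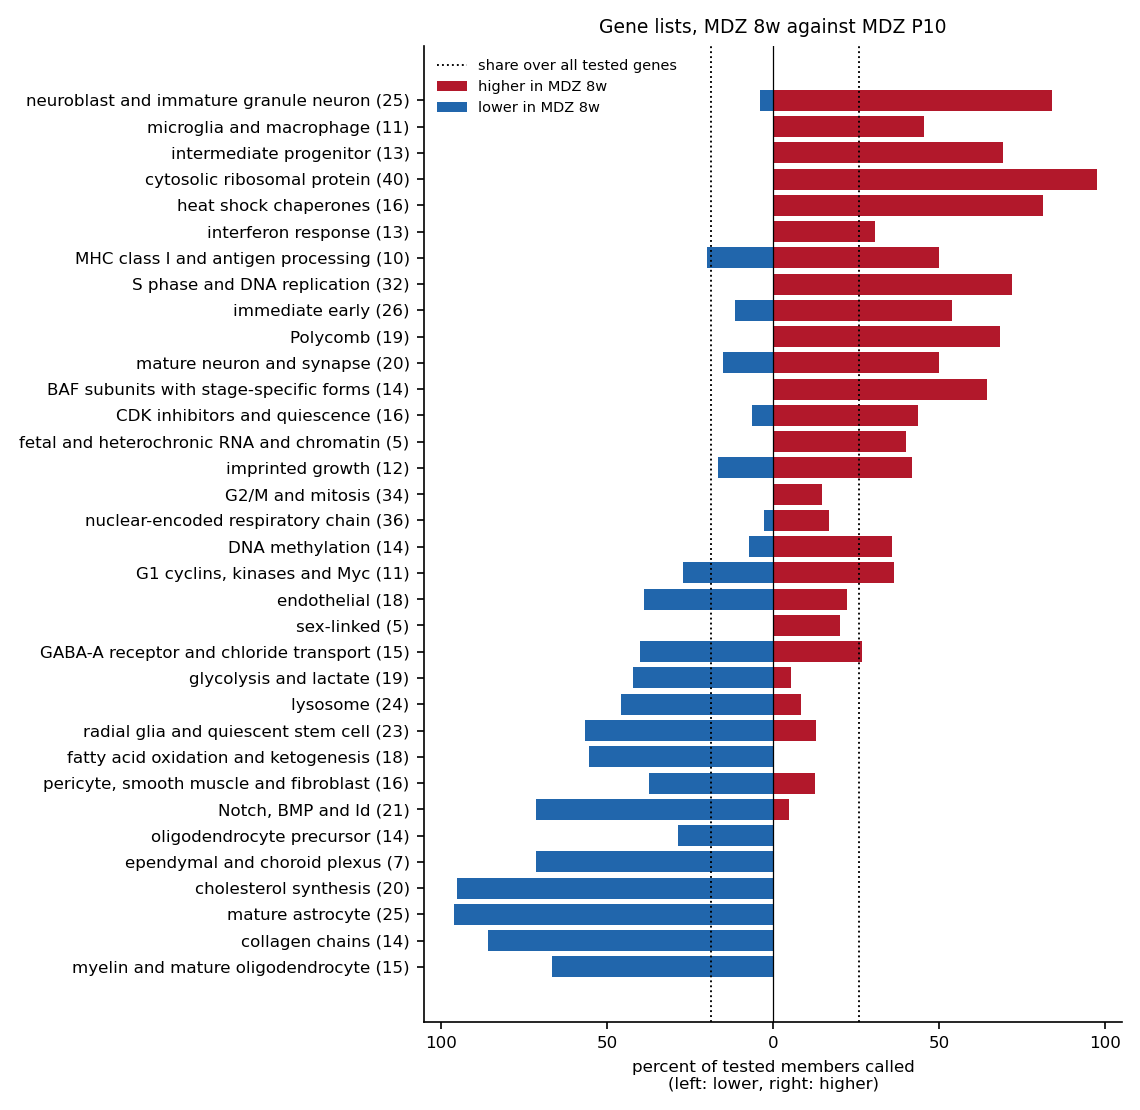
Bars give, for each gene list with at least 5 tested members, the percentage of tested members that passed as lower (blue, left) or as higher (red, right) in MDZ 8w against MDZ P10. Dotted lines mark the shares over all tested genes, 18.6% lower and 25.8% higher, and the astrocyte, cholesterol and ribosomal protein lists lie farthest beyond them.

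Notch, BMP and Id genes belong to the signalling that keeps neural stem cells undifferentiated and quiescent. Of 21 tested, 15 passed as lower and 1 as higher (median -0.88). Bmp4, a ligand, was at 29.9, 7.47 and 9.68 TPM in MDZ 8w and at 90.2, 81.2 and 103 TPM in MDZ P10 (log2 -2.71 ± 0.45, adjusted p = 0.0033). Nog, which encodes the secreted BMP antagonist noggin, was at 5.71, 0.705 and 3.09 TPM in MDZ 8w and at 14.8, 17.5 and 16.5 TPM in MDZ P10 (log2 -2.26 ± 0.47, adjusted p = 0.0085). Ligand and antagonist were thus both lower in every MDZ 8w library, and both were highest there in replicate 1. Id3, a dominant-negative helix-loop-helix target of BMP signalling (chromosome 4, 136143822 to 136145392), was at 116, 176 and 114 TPM in MDZ 8w and at 1255, 1126 and 1031 TPM in MDZ P10 (log2 -3.09 ± 0.18, adjusted p = 7.4e-05). Id1 and Id4 had log2 differences of -1.44 and -0.57, and both passed. Hes5, a Notch target and repressor of neurogenesis, was at 171, 120 and 114 TPM in MDZ 8w and at 514, 514 and 481 TPM in MDZ P10 (log2 -1.92 ± 0.15, adjusted p = 0.00026). The receptor Notch1 was at 122, 105 and 123 TPM in MDZ 8w and at 167, 184 and 202 TPM in MDZ P10, a smaller but separate gap (adjusted p = 0.0028, but 0.083 in the fit over all 15 libraries). The single rise was of Hes6, which promotes neuronal differentiation and opposes Hes1, at 223, 277 and 301 TPM in MDZ 8w and 134, 136 and 138 TPM in MDZ P10 (log2 0.96 ± 0.12, adjusted p = 0.0011, but 0.11 in the fit over all 15 libraries). The Notch ligand genes Dll1, Dll3 and Jag1 did not pass with all libraries, and each passed as higher without MDZ 8w replicate 2 (adjusted p 0.0074 to 0.020).

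Nearly all cholesterol synthesis genes fell. Of 20 tested, 19 passed as lower and 0 as higher (median -1.39), and their summed level was 1693, 2432 and 1432 TPM in MDZ 8w and 5089, 5607 and 5100 TPM in MDZ P10. Msmo1, a sterol C4 methyl oxidase (chromosome 8, 64718123 to 64733578), was at 158, 243 and 90.5 TPM in MDZ 8w and at 730, 791 and 733 TPM in MDZ P10 (log2 -2.30 ± 0.32, adjusted p = 0.0017). Every MDZ 8w library lay below every MDZ P10 library for Msmo1, and MDZ 8w replicate 2 was the highest of its group. Srebf2, the transcription factor that drives the pathway, fell less, at 159, 193 and 154 TPM in MDZ 8w and 255, 291 and 283 TPM in MDZ P10 (log2 -0.71 ± 0.11). Mvd, mevalonate decarboxylase, and Idi1, an isomerase, passed with log2 differences of -2.10 ± 0.18 and -1.49 ± 0.26 but not in the fit over all 15 libraries (adjusted p = 0.31 and 0.27). The member that did not pass was Ebp, a sterol isomerase, at 34.3, 40.8 and 21.1 TPM in MDZ 8w and 39.7, 41.1 and 36.5 TPM in MDZ P10.

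Because these members moved together, their promoters are shown. RefSeq windows of 300 bases (250 before to 50 after a start, GRCm38.p6) were found for 14 of the 20 genes. The motif CCAAT, bound by the factor NF-Y, which acts with the sterol-responsive SREBP factors, was searched on both strands, so that ATTGG is the same motif on the other strand. It was in a window of 14 of the 14 genes, beside 4067 of 9360 tested genes with a window (43.5%) and 41.1% of all genes with one. The motif was not particular to this list. It was also in 24 of 28 G2/M and mitosis genes (85.7%), which did not fall as a list. For S phase genes it was 15 of 26 (57.7%), and for ribosomal protein genes 11 of 30 (36.7%). The sterol response element TCACNCCAC was in 1 of the 14 (Hmgcs1), beside 1.46% of tested genes. Stretches of 5 enzyme genes follow, 5′ to 3′ on the strand of the gene, with motif matches in capitals. They come from chr13:119690104-119690223 (Hmgcs1, plus strand), chr13:8885551-8885605 (Idi1, plus), chr8:122443435-122443492 (Mvd, minus), chr7:143830119-143830179 (Dhcr7, plus) and chr8:64733629-64733748 (Msmo1, minus).
Hmgcs1: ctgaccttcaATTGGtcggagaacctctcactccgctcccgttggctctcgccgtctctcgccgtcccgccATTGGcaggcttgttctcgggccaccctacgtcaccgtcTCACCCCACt
Idi1: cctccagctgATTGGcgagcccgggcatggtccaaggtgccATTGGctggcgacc
Mvd: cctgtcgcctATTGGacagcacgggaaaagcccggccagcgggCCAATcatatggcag
Dhcr7: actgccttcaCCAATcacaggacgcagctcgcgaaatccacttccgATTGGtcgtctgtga
Msmo1: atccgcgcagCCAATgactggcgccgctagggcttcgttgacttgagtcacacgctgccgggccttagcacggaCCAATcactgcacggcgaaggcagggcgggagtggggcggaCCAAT

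Each of these 5 holds at least 2 copies of the motif within its window, and Hmgcs1 (log2 -1.87 ± 0.22) holds 2 beside the sterol response element. Among genes not printed, Lss, Cyp51, Sc5d, Insig1 and Srebf2 each had 1 match before the start in the window used. Sqle, Fdft1 and Fdps were among the genes without a window. A match in the letters is a description of the window and shows no binding.

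Most myelin and mature oligodendrocyte genes fell, with large differences between libraries. Of 15 tested, 10 passed as lower and 0 as higher (median -3.01), and their summed level was 1356, 322 and 713 TPM in MDZ 8w and 6605, 7183 and 5656 TPM in MDZ P10. The 5 that did not pass were Apod, Opalin, Ermn, Mal and Trf, and 2 of the 15 had a positive difference. Without MDZ 8w replicate 2, 10 passed as lower and 1 as higher (median -2.52). The fit over all 15 libraries called 9 lower. Mag, myelin-associated glycoprotein (chromosome 7, 30899175 to 30914922), was at 47.8, 7.90 and 18.8 TPM in MDZ 8w and at 636, 765 and 539 TPM in MDZ P10 (log2 -4.97 ± 0.55, adjusted p = 0.0008). Mbp, myelin basic protein, was at 60.8, 20.8 and 33.8 TPM in MDZ 8w and at 904, 962 and 736 TPM in MDZ P10 (log2 -4.58 ± 0.35). Cldn11, the tight junction protein of myelin, was at 71.5, 6.93 and 39.7 TPM in MDZ 8w and at 589, 648 and 511 TPM in MDZ P10 (log2 -4.34 ± 0.73). MDZ 8w replicate 1 was the highest and replicate 2 the lowest of its group for each of these genes, yet all MDZ 8w libraries lay below all MDZ P10 libraries. Enpp6, a choline phosphodiesterase of newly forming oligodendrocytes, was at 9.35, 3.35 and 3.74 TPM in MDZ 8w and at 137, 140 and 146 TPM in MDZ P10 (log2 -4.57 ± 0.31, adjusted p = 0.00014).

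Oligodendrocyte precursor genes turned on 1 library. All 14 tested had a negative difference (median -0.99) and 4 passed as lower. Without MDZ 8w replicate 1, 13 passed as lower (median -1.59), without MDZ 8w replicate 2 there were 2 (median -0.51), and without any other library there was 1. The fit over all 15 libraries called 2. Their summed level was 8489, 2275 and 3243 TPM in MDZ 8w and 8903, 9453 and 8718 TPM in MDZ P10, so that MDZ 8w replicate 1 stood near the MDZ P10 level and the other two well below. Pdgfra, the receptor that marks these precursors, was at 640, 128 and 250 TPM in MDZ 8w and at 532, 645 and 524 TPM in MDZ P10 (adjusted p = 0.14). Sox10, a transcription factor of the lineage, was at 476, 75.3 and 155 TPM in MDZ 8w and at 417, 440 and 415 TPM in MDZ P10 (adjusted p = 0.12). For both genes the groups overlapped through MDZ 8w replicate 1, and without it both passed as lower (adjusted p = 0.0039 and 0.0022). Bcan, the matrix proteoglycan brevican, which astrocytes also make, did not overlap, at 924, 299 and 428 TPM in MDZ 8w and 2368, 2467 and 2441 TPM in MDZ P10 (log2 -2.30 ± 0.37, adjusted p = 0.003).

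**Figure D4:**
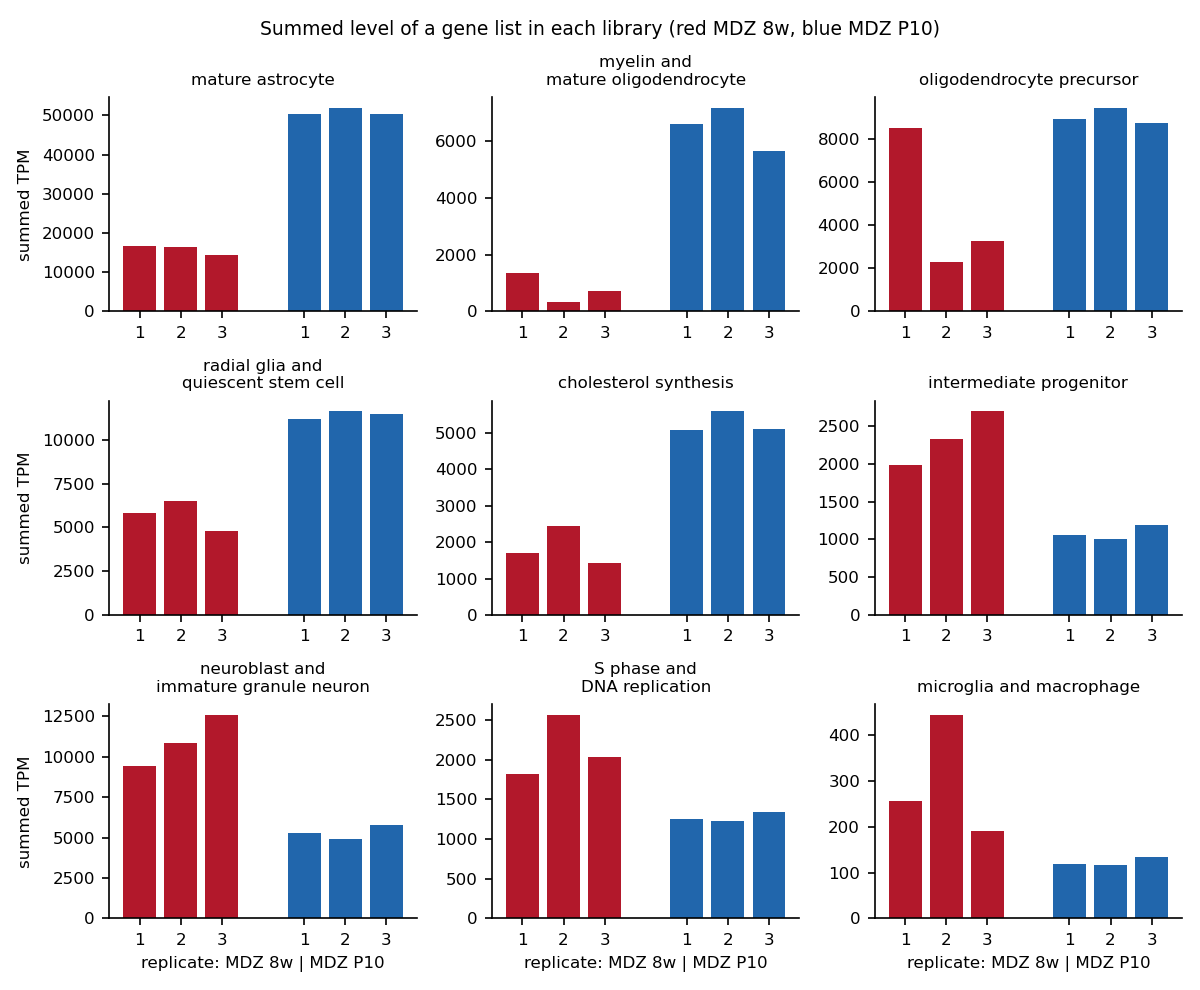
Summed level in TPM of 9 gene lists in each library, with MDZ 8w (red) left of MDZ P10 (blue) and 1 bar per library. The astrocyte sums of MDZ 8w are at most 16748 TPM and those of MDZ P10 at least 50385 TPM, while the oligodendrocyte precursor sum of MDZ 8w replicate 1 (8489 TPM) lies near the MDZ P10 libraries.

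Most genes of the neurogenic lineage rose. Of 13 intermediate progenitor genes tested, 9 passed as higher and 0 as lower (median 0.98), with a summed level of 1986, 2323 and 2698 TPM in MDZ 8w and 1062, 1001 and 1194 TPM in MDZ P10. Eomes, the T-box factor Tbr2 of intermediate progenitors (chromosome 9, 118478186 to 118486132), was at 263, 344 and 371 TPM in MDZ 8w and at 70.3, 65.5 and 87.4 TPM in MDZ P10 (log2 2.11 ± 0.16, adjusted p = 0.00021). Elavl2, a neuronal RNA-binding protein, was at 118, 134 and 170 TPM in MDZ 8w and at 35.3, 30.4 and 41.8 TPM in MDZ P10 (log2 1.94 ± 0.17). Mfng, a glycosyltransferase that modifies Notch receptors, was at 71.6, 119 and 103 TPM in MDZ 8w and at 23.6, 23.1 and 29.8 TPM in MDZ P10 (log2 1.88 ± 0.20). For these 3 genes the lowest MDZ 8w library was well above the highest MDZ P10 library. The 4 that did not pass were Tac2, Mxd3, Dll1 and Dll3, all with a positive difference.

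Neuroblast and immature granule neuron genes followed the same direction, with 21 of 25 tested higher and 1 lower (median 1.09). Their summed level was 9416, 10836 and 12609 TPM in MDZ 8w and 5253, 4931 and 5779 TPM in MDZ P10. Nhlh1, a helix-loop-helix factor of newborn neurons, was at 122, 113 and 160 TPM in MDZ 8w and at 23.3, 18.2 and 38.9 TPM in MDZ P10 (log2 2.30 ± 0.27, adjusted p = 0.00097). Stmn2, a microtubule regulator of growing axons (chromosome 3, 8509527 to 8561604), was at 244, 350 and 299 TPM in MDZ 8w and at 61.7, 50.3 and 69.1 TPM in MDZ P10 (log2 2.28 ± 0.16, adjusted p = 0.00016). Neurod1, a differentiation factor of granule neurons (chromosome 2, 79452637 to 79456636), was at 397, 458 and 564 TPM in MDZ 8w and at 188, 161 and 221 TPM in MDZ P10 (log2 1.31 ± 0.16, adjusted p = 0.0012). In all 3 the MDZ 8w libraries stood above the MDZ P10 libraries. Dcx, doublecortin, the microtubule protein of migrating neuroblasts, was at 191, 229 and 262 TPM in MDZ 8w and at 94.8, 90.6 and 118 TPM in MDZ P10 (log2 1.16 ± 0.15). Prox1, the granule neuron fate factor (chromosome 1, 190118035 to 190170827), was at 202, 221 and 271 TPM in MDZ 8w and at 103, 103 and 126 TPM in MDZ P10 (log2 1.05 ± 0.13, adjusted p = 0.0013). The member that fell was Ncam1, a cell adhesion molecule that glia also express, at 174, 111 and 134 TPM in MDZ 8w and 251, 277 and 285 TPM in MDZ P10 (log2 -0.97 ± 0.16).

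Mature neuron and synapse genes were mixed, with 10 of 20 tested higher and 3 lower (median 0.46), and the fit over all 15 libraries called 5 higher and 0 lower. Rbfox3, the neuronal nuclear antigen NeuN, was at 90.7, 111 and 152 TPM in MDZ 8w and at 38.0, 33.9 and 45.5 TPM in MDZ P10 (log2 1.55 ± 0.20, adjusted p = 0.0013). Syp, the synaptic vesicle protein synaptophysin, was at 152, 162 and 155 TPM in MDZ 8w and at 61.7, 59.2 and 69.4 TPM in MDZ P10 (log2 1.29 ± 0.09, adjusted p = 0.00013). Snap25, a membrane fusion protein, was at 121, 110 and 130 TPM in MDZ 8w and at 64.8, 59.5 and 60.1 TPM in MDZ P10. These 3 were separate between the groups. Syt1, the calcium sensor of vesicle release, which mature neurons express strongly, was low in both groups, at 6.62, 8.23 and 10.1 TPM in MDZ 8w and 5.80, 6.16 and 7.10 TPM in MDZ P10 (adjusted p = 0.25). Grin1, the obligate NMDA receptor subunit, was at 10.2, 8.23 and 11.0 TPM in MDZ 8w and at 15.9, 17.8 and 17.0 TPM in MDZ P10 (log2 -0.73 ± 0.15, adjusted p = 0.0084, but 0.0528 without MDZ P10 replicate 2 and 0.13 in the fit over all 15 libraries).

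The cell cycle lists differed in their counts. Of 32 S phase and DNA replication genes tested, 23 passed as higher and 0 as lower (median 0.59), with a summed level of 1823, 2572 and 2040 TPM in MDZ 8w and 1257, 1229 and 1347 TPM in MDZ P10. Pcna, the replication clamp (chromosome 2, 132249286 to 132253180), was at 285, 439 and 336 TPM in MDZ 8w and at 177, 166 and 179 TPM in MDZ P10 (log2 1.00 ± 0.15, adjusted p = 0.0026). Mcm7, a subunit of the replicative helicase (chromosome 5, 138164583 to 138172111), was at 139, 192 and 182 TPM in MDZ 8w and at 80.3, 77.0 and 81.2 TPM in MDZ P10 (log2 1.08 ± 0.13, adjusted p = 0.001). Both were higher in every MDZ 8w library. The count of 23 became 13, 12 and 15 without MDZ P10 replicates 1, 2 or 3, and 24, 22 and 22 without MDZ 8w replicates 1, 2 or 3, and the fit over all 15 libraries called 6. The summed level was 1181 to 1303 TPM in RUN MDZ 8w, a range that overlapped MDZ P10 and lay below MDZ 8w. It was 1739 to 1878 TPM in Control 8w and 1084 to 1219 TPM in Control P10. The Control median was 0.19, with 18 of 31 members positive and 13 negative.

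Of 34 G2/M and mitosis genes, 5 passed as higher and 0 as lower (median 0.19), a share below the 25.8% over all genes. Without MDZ 8w replicate 2 the median turned to -0.04, with 2 higher and 2 lower; without MDZ 8w replicate 1 the median was 0.37 with 10 higher, and without MDZ P10 replicate 2 there were 0. The fit over all 15 libraries called 0. Top2a, the mitotic topoisomerase (chromosome 11, 98992947 to 99024199), was at 59.7, 116 and 66.0 TPM in MDZ 8w and at 68.0, 74.5 and 87.5 TPM in MDZ P10 (log2 0.02 ± 0.25, adjusted p = 0.96). Mki67, the proliferation antigen Ki-67, was at 43.4, 69.9 and 60.8 TPM in MDZ 8w and at 39.6, 43.0 and 55.2 TPM in MDZ P10 (log2 0.32 ± 0.20, adjusted p = 0.23, but 0.037 without MDZ 8w replicate 1). Cdk1, the kinase that starts mitosis, stood at 16.2, 40.1 and 28.8 TPM in MDZ 8w and at 30.3, 28.0 and 33.6 TPM in MDZ P10 (adjusted p = 0.62). The groups overlapped for all 3, and MDZ 8w replicate 2 was the highest library of its group in each. Whether S phase genes changed more than G2/M genes was not tested.

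Promoter windows of the cell cycle lists are shown for the replication genes, of which 23 of 32 passed as higher in MDZ 8w. The E2F-type motifs TTTGGCGC, TTTCCCGC and TTTCGCGC, searched on both strands and counted once where they overlap in a gene, were in 10 of 26 S phase genes with a window (38.5%), 3 of 28 G2/M genes (10.7%) and 4.06% of tested genes. TTTGAA or TTTAAA, the letters of the cell cycle homology region of mitotic genes, was in 24 of 28 G2/M genes (85.7%), 7 of 26 S phase genes (26.9%) and 21.4% of tested genes. The stretches below, with matches in capitals, come from chr8:75109346-75109377 (Mcm5, plus strand), chr1:128359735-128359825 (Mcm6, minus) and chr5:138172031-138172058 (Mcm7, minus). In Mcm5 the capitals are TTTCGCGC overlapped by TTTGGCGC on the other strand.
Mcm5: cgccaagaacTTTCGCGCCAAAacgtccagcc
Mcm6: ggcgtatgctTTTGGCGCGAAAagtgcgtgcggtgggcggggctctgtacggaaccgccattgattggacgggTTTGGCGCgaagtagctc
Mcm7: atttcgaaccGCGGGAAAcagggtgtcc

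These 3 helicase genes rose by 0.76, 0.89 and 1.08 on the log2 scale. Motif matches are descriptions of the letters only.

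Regulators of the cell cycle moved both ways. Of 16 genes of CDK inhibitors and quiescence, 7 passed as higher and 1 as lower (median 0.34). The fit over all 15 libraries called 3 and 1, without MDZ P10 replicate 2 there were 4 higher, and with median-of-ratios scaling or without MDZ 8w replicate 3 there were 3 lower. The median was 0.20 without MDZ 8w replicate 2. Beside this list and the G1 list below, 25.8% of all tested genes were higher and 18.6% lower, with a median of 0.07. Cdkn1b, the CDK inhibitor p27, was at 336, 369 and 426 TPM in MDZ 8w and at 194, 168 and 191 TPM in MDZ P10 (log2 1.02 ± 0.11, adjusted p = 0.00073). Foxo1, a transcription factor of stem cell quiescence, was the one lower, at 24.9, 35.3 and 21.2 TPM in MDZ 8w and 55.7, 53.1 and 57.4 TPM in MDZ P10 (log2 -1.03 ± 0.18). Of 11 G1 cyclins, kinases and Myc genes, 4 were higher and 3 lower (1 lower without any 1 MDZ P10 library), with a median of 0.01 that took either sign, from -0.09 to 0.08, when 1 library was left out. Cdk6, a kinase of G1, stood at 28.4, 42.6 and 48.3 TPM in MDZ 8w and at 9.83, 9.89 and 13.7 TPM in MDZ P10 (log2 1.73 ± 0.22, adjusted p = 0.0014). Its partner Ccnd2, cyclin D2, was at 232, 389 and 276 TPM in MDZ 8w and at 122, 127 and 141 TPM in MDZ P10 (log2 1.16 ± 0.18). Ccnd1, cyclin D1, was at 294, 295 and 110 TPM in MDZ 8w and at 127, 135 and 110 TPM in MDZ P10 (adjusted p = 0.12, but 0.0011 without MDZ 8w replicate 3). Myc, a growth-promoting factor, was at 12.5, 17.6 and 10.7 TPM in MDZ 8w and at 46.4, 42.7 and 45.6 TPM in MDZ P10 (log2 -1.68 ± 0.18, adjusted p = 0.00066, but 0.30 in the fit over all 15 libraries). Cdkn1b, Cdk6 and Ccnd2 were thus higher in every MDZ 8w library, and Myc lower.

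Immediate early genes, which neurons and other cells switch on within minutes of stimulation or dissociation, were partly higher: 14 of 26 tested passed as higher and 3 as lower (median 0.52), against 9 and 1 in the fit over all 15 libraries. Npas4, a transcription factor specific to neuronal activity (chromosome 19, 4984353 to 5003439), was at 41.0, 32.3 and 63.3 TPM in MDZ 8w and at 1.34, 1.83 and 2.69 TPM in MDZ P10 (log2 3.95 ± 0.29, adjusted p = 0.00018). Vgf, a neuropeptide precursor induced by neurotrophins (chromosome 5, 137025301 to 137033351), was outside the list and moved alike, at 31.3, 28.4 and 42.6 TPM in MDZ 8w and 1.74, 1.18 and 1.41 TPM in MDZ P10 (log2 3.83 ± 0.22). Egr1, a zinc finger factor, was at 2049, 1881 and 2692 TPM in MDZ 8w and at 1146, 1082 and 952 TPM in MDZ P10 (log2 1.04 ± 0.15, adjusted p = 0.0021). For each of the 3, the lowest MDZ 8w library was above the highest MDZ P10 library. Egr2 was at 40.0, 39.0 and 60.4 TPM in MDZ 8w and at 12.3, 16.2 and 10.8 TPM in MDZ P10 (log2 1.74 ± 0.21). Fos, the best-known gene of the class, was already high at P10 and overlapped, at 1927, 1685 and 2251 TPM in MDZ 8w and 1856, 1946 and 1685 TPM in MDZ P10 (adjusted p = 0.61). Cyr61, Klf4 and Nr4a1 were the 3 lower, of which Cyr61 and Nr4a1 did not pass in the fit over all 15 libraries (adjusted p = 0.068 and 0.34).

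Most heat shock chaperones rose beside them, 13 of 16 tested as higher and 0 as lower (median 0.83). Hspa1a, the inducible chaperone Hsp70 (chromosome 17, 34969359 to 34972156), was at 41.2, 43.5 and 80.9 TPM in MDZ 8w and at 4.65, 4.99 and 4.66 TPM in MDZ P10 (log2 3.22 ± 0.26, adjusted p = 0.00025). Its near-identical neighbour Hspa1b shares reads with it, so the split between them is uncertain. Hspb1, a small heat shock protein, was at 47.1, 60.4 and 47.1 TPM in MDZ 8w and at 8.04, 7.98 and 8.31 TPM in MDZ P10 (log2 2.52 ± 0.13, adjusted p = 5.2e-05). The groups were separate, and MDZ 8w replicate 3 had the most Hspa1a as it had the most Npas4.

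Cytosolic ribosomal protein genes had 39 of 40 tested higher and 0 lower (median 0.86), with a summed level of 20953, 27398 and 24342 TPM in MDZ 8w and 14390, 14127 and 13363 TPM in MDZ P10. The fit over all 15 libraries called 28 higher. The summed level was 13186 to 17768 TPM in RUN MDZ 8w, a range that overlapped MDZ P10 and lay below MDZ 8w. It was 21722 to 25282 TPM in Control 8w and 13273 to 14328 TPM in Control P10. Rpl11 was at 308, 443 and 368 TPM in MDZ 8w and at 175, 182 and 159 TPM in MDZ P10 (log2 1.10 ± 0.14, adjusted p = 0.0012). The 1 member that did not pass, Rps27, was below 13 TPM in all 6 libraries. Many of these genes have near-identical processed pseudogenes that can share their reads, so single members are uncertain. Nuclear-encoded respiratory chain genes had 6 of 36 higher and 1 lower (median 0.11), shares below the 25.8% and 18.6% over all genes, with 2 higher without MDZ P10 replicate 2 or 3 and with median-of-ratios scaling, 3 higher and a median of 0.06 without MDZ 8w replicate 2, and 0 in the fit over all 15 libraries.

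Polycomb and BAF genes that passed were all higher, at shares above the 25.8% over all genes. Of 19 Polycomb genes tested, 13 passed as higher and 0 as lower (median 0.48), with 4 higher in the fit over all 15 libraries. Bmi1, a subunit of Polycomb repressive complex 1 required for adult stem cell renewal (chromosome 2, 18677018 to 18686629), was at 105, 120 and 123 TPM in MDZ 8w and at 60.8, 60.5 and 62.7 TPM in MDZ P10 (log2 0.91 ± 0.09, adjusted p = 0.00049). Ezh2, the histone H3 lysine 27 methyltransferase, was at 140, 171 and 170 TPM in MDZ 8w and at 95.1, 84.9 and 98.0 TPM in MDZ P10 (log2 0.78 ± 0.11). Of 14 BAF chromatin remodelling subunits, 9 were higher and 0 lower (median 0.35), with 5 higher without MDZ P10 replicate 2 and in the fit over all 15 libraries. Actl6b, the neuron-specific subunit (chromosome 5, 137553361 to 137569582), was at 81.5, 97.7 and 113 TPM in MDZ 8w and at 33.6, 31.6 and 39.5 TPM in MDZ P10 (log2 1.45 ± 0.14, adjusted p = 0.00053). All 3 genes were separate between the groups, as were 59.4% of all tested genes.

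Among 14 DNA methylation genes, 5 were higher and 1 lower (median 0.09), against 1 and 1 in the fit over all 15 libraries and 1 and 2 with median-of-ratios scaling. Without MDZ P10 replicates 1, 2 or 3 the count of higher genes was 1, 1 and 3, and without MDZ 8w replicate 3 it was 2. The median ran from 0.02 to 0.20 with 1 MDZ 8w library left out. With all libraries it was near the 0.07 over all genes. The share lower was below the 18.6% over all genes, of which 25.8% were higher. Dnmt3a, the de novo methyltransferase, was at 29.1, 23.4 and 23.5 TPM in MDZ 8w and at 52.5, 57.1 and 57.8 TPM in MDZ P10 (log2 -1.11 ± 0.11, adjusted p = 0.00059). Gadd45b, which takes part in activity-induced demethylation, was at 50.7, 52.3 and 79.4 TPM in MDZ 8w and at 22.5, 26.9 and 20.5 TPM in MDZ P10 (log2 1.32 ± 0.19). Tet1, a methylcytosine dioxygenase, was at 15, 16.4 and 19.2 TPM in MDZ 8w and at 15.2, 15.3 and 20.1 TPM in MDZ P10 and overlapped. Of 15 fetal and heterochronic genes, such as Lin28b, 5 were expressed enough to be tested, and 2, Arid3b and Mycn, passed as higher but not in the fit over all 15 libraries (adjusted p = 0.12 and 0.18). Arid3b also lost the call without MDZ P10 replicate 1 or 2 (adjusted p = 0.0795 and 0.0898).

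The genes of fuel use that passed were lower in MDZ 8w except for 1 glycolysis gene, and many did not pass. Of 18 fatty acid oxidation and ketogenesis genes, 10 passed as lower and 0 as higher (median -0.40), a count that was 5 without any 1 MDZ P10 library and 4 in the fit over all 15 libraries. Cpt1a, which admits fatty acids to mitochondria and is enriched in quiescent neural stem cells, was at 40.0, 47.0 and 34.7 TPM in MDZ 8w and at 124, 134 and 135 TPM in MDZ P10 (log2 -1.68 ± 0.12, adjusted p = 0.00016). Of 19 glycolysis and lactate genes, 8 were lower and 1 higher (median -0.31), with 4 lower in the fit over all 15 libraries and 4, 5 and 5 without MDZ P10 replicates 1, 2 or 3, and a median of -0.20 without MDZ 8w replicate 3. Slc16a1, the monocarboxylate transporter for lactate and ketone bodies, was at 33.0, 35.2 and 28.1 TPM in MDZ 8w and at 136, 117 and 129 TPM in MDZ P10 (log2 -1.96 ± 0.11, adjusted p = 6.8e-05). Pfkm, a phosphofructokinase subunit, was at 173, 144 and 140 TPM in MDZ 8w and at 302, 297 and 313 TPM in MDZ P10 (log2 -1.0 ± 0.10). Cpt1a, Slc16a1 and Pfkm did not overlap between the groups. Gapdh, a common reference gene, was at 66.7, 80.1 and 53.5 TPM in MDZ 8w and at 67.5, 65.5 and 65.6 TPM in MDZ P10 (log2 -0.01 ± 0.14). Lysosome genes had 11 of 24 lower and 2 higher (median -0.37), against 5 and 0 in the fit over all 15 libraries and 1 higher without MDZ 8w replicate 1 or any 1 MDZ P10 library, with Lamp1, an abundant lysosomal membrane protein, at 689, 595 and 552 TPM in MDZ 8w and 1230, 1312 and 1220 TPM in MDZ P10.

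GABA genes are of interest because midazolam acts on GABA-A receptors. Of 15 tested, 4 passed as higher and 6 as lower (median -0.27, but -0.62 without MDZ 8w replicate 1), and the fit over all 15 libraries called 1 and 4. The share higher is near the 25.8% over all genes. The falls included the glial members. Slc6a11, the astrocyte GABA transporter GAT3, was at 108, 115 and 94.6 TPM in MDZ 8w and at 671, 748 and 796 TPM in MDZ P10 (log2 -2.79 ± 0.10, adjusted p = 2.3e-05). Gabrg1, a receptor subunit of glia and some neurons, was at 17.7, 11.1 and 8.85 TPM in MDZ 8w and at 53.8, 62.9 and 57.6 TPM in MDZ P10 (log2 -2.17 ± 0.23, adjusted p = 0.00067). Both were lower in each MDZ 8w library than in any MDZ P10 library. Gabra2, an alpha subunit that can form benzodiazepine sites, was at 34.0, 41.4 and 50 TPM in MDZ 8w and at 44.3, 44.1 and 46.4 TPM in MDZ P10 and overlapped. Gad1, a GABA-synthesising enzyme, was at 45.2, 49.5 and 30.8 TPM in MDZ 8w and at 18.2, 19.9 and 15.4 TPM in MDZ P10 (log2 1.16 ± 0.19, adjusted p = 0.0033, but 0.47 in the fit over all 15 libraries). The chloride importer Slc12a2 passed at -0.27 ± 0.08 but lost the call without MDZ 8w replicate 3 or any 1 MDZ P10 library (adjusted p 0.0599 to 0.146). The exporter Slc12a5, which makes GABA inhibitory in mature neurons, was at 8.18, 4.47 and 2.58 TPM in MDZ 8w and at 5.37, 5.11 and 5.03 TPM in MDZ P10 (adjusted p = 0.80).

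Genes of vessels and matrix did not move as 1 group. Of 18 endothelial genes, 4 were higher, a share near that over all genes, and 7 lower (median -0.17), with a summed level of 923, 1192 and 861 TPM in MDZ 8w and 1001, 868 and 946 TPM in MDZ P10, which overlapped. Ly6c1, an endothelial surface protein, was at 84.1, 139 and 71.2 TPM in MDZ 8w and at 28.3, 20.6 and 24.1 TPM in MDZ P10 (log2 1.92 ± 0.25). Kdr, the VEGF receptor 2 of growing vessels, was at 8.32, 8.52 and 10.0 TPM in MDZ 8w and at 37.0, 27.7 and 38.5 TPM in MDZ P10 (log2 -1.82 ± 0.16, adjusted p = 0.00037). Those 2 genes moved in opposite directions, each without overlap, and the fit over all 15 libraries called 2 endothelial genes higher and 4 lower. Of 16 pericyte, smooth muscle and fibroblast genes, 2 were higher and 6 lower (median -0.75, but -0.38 without MDZ 8w replicate 2), and the fit over all 15 libraries called 1 and 5. Vtn, the matrix protein vitronectin of pericytes, rose, at 398, 820 and 823 TPM in MDZ 8w and 181, 152 and 197 TPM in MDZ P10 (log2 1.87 ± 0.28, adjusted p = 0.0024). Collagen chains had 12 of 14 lower and 0 higher (median -1.91), and the 2 that did not pass, Col18a1 and Col11a1, were negative. Col1a1, a fibrillar collagen, was at 1.05, 0.124 and 1.57 TPM in MDZ 8w and at 12, 13.4 and 26.8 TPM in MDZ P10 (log2 -3.26 ± 0.44). Col4a1, of basement membranes, was at 40.2, 36.2 and 42.4 TPM in MDZ 8w and at 164, 166 and 202 TPM in MDZ P10 (log2 -2.13 ± 0.11, adjusted p = 5.2e-05). These collagen genes were lower in every MDZ 8w library.

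Markers of microglia were low, with positive differences. Of 18 listed, 11 were expressed enough to be tested, all with a positive difference, and 5 passed as higher (median 1.02). The summed level was 256, 445 and 191 TPM in MDZ 8w and 118, 116 and 135 TPM in MDZ P10. Ctss, a cathepsin of microglia, was at 24.5, 33.2 and 13.7 TPM in MDZ 8w and at 4.81, 3.93 and 5.76 TPM in MDZ P10 (log2 2.02 ± 0.32, adjusted p = 0.0028, but 0.45 in the fit over all 15 libraries). The count was 11 without MDZ 8w replicate 3 (median 1.62), 9 with quantile normalization, 8 with one weight a library, 3 without MDZ P10 replicate 2 and 0 in the fit over all 15 libraries. MHC class I and antigen processing genes had 5 of 10 higher and 2 lower, and interferon response genes 4 of 13 higher, near the 25.8% over all genes, and 0 lower (medians 0.62 and 0.64), and each list had 2 higher and 0 lower in the fit over all 15 libraries. The MHC list had 1 lower without any 1 MDZ P10 library, and a median of 0.96 without MDZ P10 replicate 2. Ifi27, an interferon-induced gene, was at 209, 120 and 164 TPM in MDZ 8w and at 39.7, 49.5 and 32.3 TPM in MDZ P10 (log2 1.98 ± 0.23, adjusted p = 0.0009). H2-T23, a nonclassical MHC class I gene, was at 24.1, 24.7 and 21.7 TPM in MDZ 8w and at 9.82, 10.5 and 8.51 TPM in MDZ P10 (log2 1.21 ± 0.13). Without MDZ P10 replicate 1 or 3 the interferon list had 2 higher, and without replicate 3 its median was 0.29. The part of microglial RNA in these immune lists was not tested. Of 7 ependymal and choroid plexus genes tested, 5 were lower (median -1.30), 3 without MDZ P10 replicate 2 or 3 and 1 in the fit over all 15 libraries, with Foxj1, the factor of motile cilia, at 11.1, 7.58 and 6.98 TPM in MDZ 8w and 22.4, 28.4 and 22.7 TPM in MDZ P10.

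Imprinted growth genes, expressed from one parental copy, were mixed. Of 12 tested, 5 were higher and 2 lower (median 0.21), against 2 and 1 in the fit over all 15 libraries and 2 and 0 without any 1 MDZ P10 library, and the median was 0.13 without MDZ 8w replicate 2. The share lower was near the 18.6% over all genes, of which 25.8% were higher, with a median of 0.07. Nnat, neuronatin, was at 3720, 4385 and 3567 TPM in MDZ 8w and at 1634, 1557 and 1700 TPM in MDZ P10 (log2 1.25 ± 0.11, adjusted p = 0.00037). Peg10 was at 33.8, 74.4 and 27.1 TPM in MDZ 8w and at 11.5, 11.0 and 12.8 TPM in MDZ P10 (log2 1.72 ± 0.34, adjusted p = 0.0069). Igf2, insulin-like growth factor 2, was at 15.1, 18.5 and 48.1 TPM in MDZ 8w and at 58.8, 51.9 and 83.3 TPM in MDZ P10 (log2 -1.37 ± 0.41, adjusted p = 0.032). Nnat and Peg10 were higher in every MDZ 8w library, while the Igf2 call was lost without any 1 of 5 libraries (adjusted p 0.0613 to 0.108).

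The same age step in mice given water, Control 8w against Control P10, shares no library with the one above and its values are set beside it. Control 8w replicates 2 and 3, the closest pair of 8-week libraries, were nearly the same and entered as 1 sample (n = 2). Replicate 1 was unlike them, with a robust SD of the log2 ratio of 1.44 to replicate 2 and 1.35 to replicate 3. Within MDZ 8w it was 0.342 to 0.369. The Control values below therefore average 2 unlike samples at 8 weeks. The Control 8w libraries listed 11163 to 11397 genes above 0, well below the 15382 to 16709 of MDZ 8w. Of the genes that passed in the MDZ comparison and had a Control value, 4370 of 5505 (79.4%) had the same sign in Control, 2209 of 3183 of those higher (69.4%) and 2161 of 2322 of those lower (93.1%). Over all genes tested in the Control comparison, 59.9% had a negative difference, so a shared fall is the more frequent outcome. Among genes above 0 in all Control 8w libraries the share with the same sign was 82.1%.

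By list, the median was -1.82 in MDZ and -2.31 in Control for mature astrocyte genes (25 of 25 negative in Control), -1.39 in MDZ and -2.31 in Control for cholesterol synthesis (20 of 20 negative), -3.01 in MDZ and -4.10 in Control for myelin genes (14 of 14 negative) and 1.09 in MDZ and 1.5 in Control for neuroblast genes (23 of 25 positive). The signs were opposite for the G2/M list, at 0.19 in MDZ and -1.40 in Control, where 32 of 34 were negative. They were also opposite for microglia (1.02 in MDZ and -0.11 in Control), interferon response (0.64 in MDZ and -0.30 in Control), respiratory chain (0.11 in MDZ and -0.23 in Control), endothelial (-0.17 in MDZ and 0.30 in Control) and sex-linked genes (-0.23 in MDZ and 1.60 in Control). The Control P10 libraries differed in sex, with Xist at 658, 0.766 and 0.364 TPM in replicates 1 to 3. Ddx3y was at 0.132, 65.4 and 68.3 TPM there. The part of library sex in the sex-linked medians was not tested. The median over all tested genes was itself of opposite sign, at 0.07 in MDZ and -0.28 in Control. Respiratory chain medians lay near these values in both comparisons, and the interferon response median lay near its value in Control. Whether the medians of a list differed between MDZ and Control was not tested. The summed astrocyte level was 18859 to 23347 TPM in RUN MDZ 8w, 10424 to 14616 TPM in Control 8w and 45378 to 54968 TPM in Control P10. The summed myelin level was 3088 to 4432 TPM in RUN MDZ 8w, 511 to 654 TPM in Control 8w and 5686 to 12571 TPM in Control P10, so that the RUN MDZ 8w libraries lay between the MDZ 8w and MDZ P10 libraries. The summed neuroblast level was 8653 to 10038 TPM in RUN MDZ 8w, 14423 to 15039 TPM in Control 8w and 5082 to 5983 TPM in Control P10. Aqp4 was at 10.1, 13.3 and 10.5 TPM in Control 8w and at 981, 777 and 916 TPM in Control P10, and at 68.2, 145 and 73.6 TPM in RUN MDZ 8w. Hopx was at 128, 90.6 and 97.1 TPM in Control 8w and at 369, 300 and 410 TPM in Control P10, whereas its MDZ groups overlapped. The difference between the age changes for Hopx did not pass (adjusted p = 0.83).

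**Figure D5:**
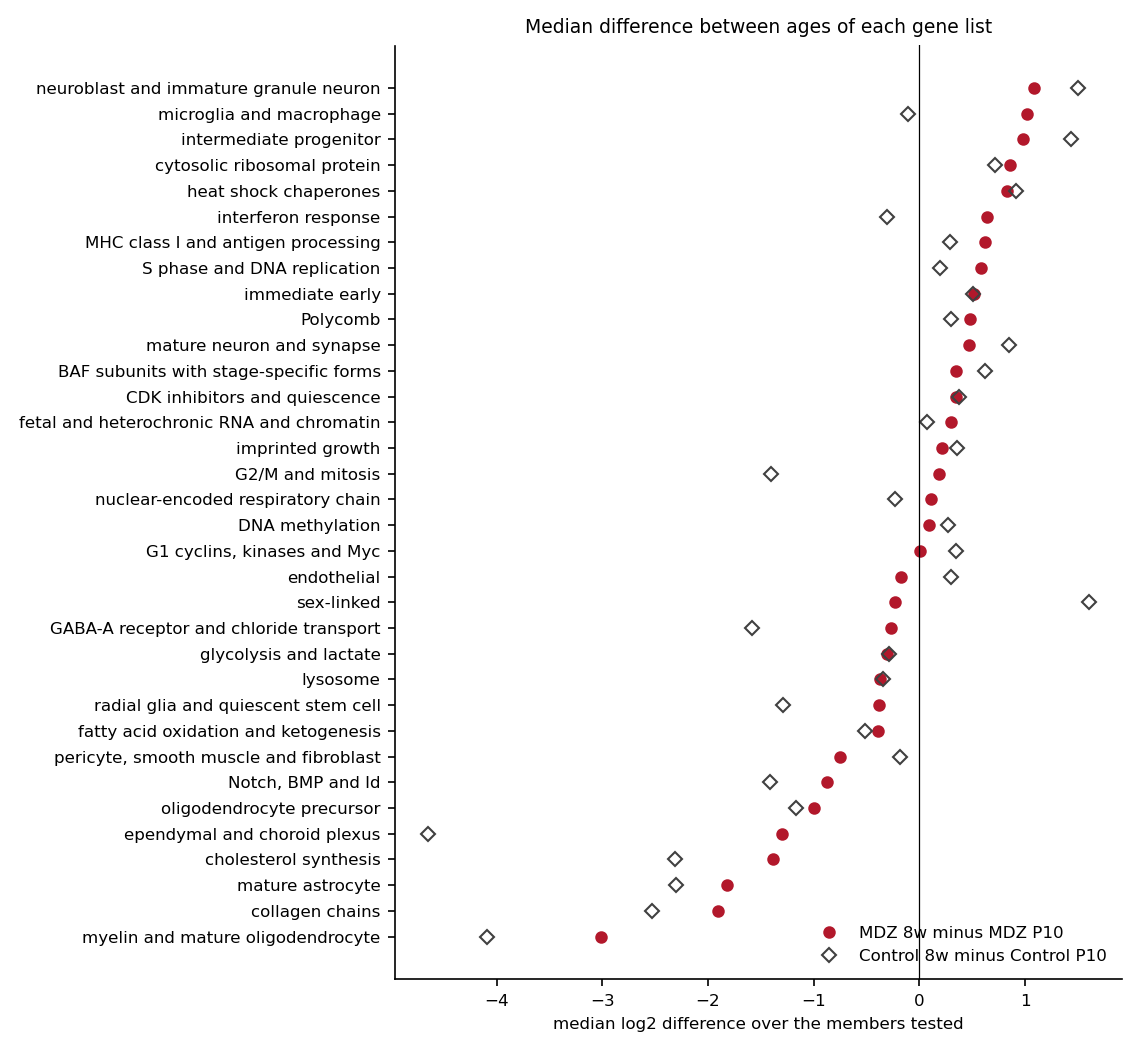
Median log2 difference between 8 weeks and P10 of each gene list, in MDZ (filled red circles) and in Control (open diamonds). Medians of both lie on the same side of 0 for the astrocyte, cholesterol, myelin and neuroblast lists, and on opposite sides for the G2/M, microglia, interferon, respiratory chain, endothelial and sex-linked lists. The median over all tested genes was also on opposite sides, at 0.07 in MDZ and -0.28 in Control.

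The test of that difference, limma with one weight a group, found 36 of 12577 genes (0.286%), with 1078 at an unadjusted p below 0.05. All 36 had a higher age change in MDZ than in Control. Of these, 35 were listed at 0 in at least 1 Control 8w library and 20 in all 3, and 18 also passed in the MDZ comparison. Il18, a cytokine of the interleukin 1 family, was at 180, 92.3 and 120 TPM in MDZ 8w and at 292, 290 and 266 TPM in MDZ P10, and was listed at 0 in all Control 8w libraries and at 279, 289 and 263 TPM in Control P10. Snf8, a subunit of an endosomal sorting complex used by all cells, was at 94.3, 87.5 and 84.9 TPM in MDZ 8w and at 80.3, 77.8 and 69.1 TPM in MDZ P10, and was listed at 0 in all Control 8w libraries too. The difference test therefore rested on genes listed at or near 0 in Control 8w, and a listing at 0 may be a failed estimate.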

How the data were processed

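RNA libraries of sorted EGFP-positive dentate gyrus cells were used, 15 of the 21 RNA libraries of the series. The 6 culture libraries and the 10 ATAC and ChIP samples were not used here. Per the labels' protocols, mRNA was isolated with the Dynabeads mRNA DIRECT Micro Kit and libraries were made with the NEBNext Ultra Directional kit. Per the submitters' processing notes, the genome was mm10, and TopHat, Bowtie2 and DESeq2 were named without role or version. For the values themselves, the software, gene annotation, strandedness and filters were not given in the sources used here. The P10 files were deposited as FPKM (totals of 241508 to 252344 over 24062 names) and the 8-week files were deposited as TPM (equal totals). These units were read from the values.

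Each P10 FPKM column was divided by its sum and multiplied by 1000000. Genes with a mean of at least 5 over the libraries compared were tested on log2(TPM + 1) with limma 3.58.1 (trend, R 4.3.3, with data.table in its version 1.17.8) and Benjamini-Hochberg adjustment at 0.05. The program was tested on simulated data. The difference between the age changes was fitted with one array weight a group. Low P10 values fall in steps of whole reads, which gave a relative depth of 0.727, 0.793 and 1.0 for MDZ P10 replicates 1 to 3. At 8 weeks the depth is unknown, so no counting interval is given.

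The members and the gene lists were chosen with earlier results of these data known. Named genes were the 10 largest rises and falls without overlap, leaving out predicted, small RNA and pseudogene symbols, the 8 largest at 5 or more in all 6 libraries, up to 3 called members a direction of each of 36 lists, a fixed set, and 5 genes of the difference test. Some genes that the rule names are counted in their lists but not reported here. Other genes named as exceptions or for their role were chosen after their values were seen, as were the cholesterol and S phase promoter windows, since the planned rule (cell cycle members that fell) found none. Alternatives were other pseudocounts (0.1 and 5), filters (means of 1 and 10, and none), median-of-ratios and quantile scaling, leaving out predicted genes and small RNAs, library weights, robust moderation, a replicate block, one fit over all 15 sorted libraries, and each library left out. Lists overlap, and 13 mitochondrially encoded genes were looked for and not analysed here. Gene positions and promoters are from RefSeq (GRCm38.p6).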

Additional observations from a re-analysis of the deposited data

Results flagged for a closer look

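For 5 genes the test of the difference between the age changes in MDZ and in Control passed (limma, adjusted p = 0.022 for each), with Control 8w values at or near 0 that may be failed estimates. The difference of the log2 age changes was 6.96 for Il18, 6.49 for Snf8, 5.78 for Tspan12, 5.59 for N6amt2 and 5.39 for Grhpr. These sizes are set by the pseudocount of 1 and are neither folds nor bounds, and over all genes the test found 0 with a pseudocount of 5 and 3 with quantile normalization. Control 8w replicates 1 to 3 were listed at 0 for Il18 and Snf8, at 0.296, 0.371 and 0 TPM for Tspan12, at 0.353, 2.21 and 0 TPM for N6amt2, and at 0.120, 0 and 0 TPM for Grhpr. Tspan12, a tetraspanin, was at 79.6, 70.0 and 51.5 TPM in MDZ 8w and at 118, 117 and 109 TPM in MDZ P10. N6amt2 was at 81.8, 91.7 and 64.7 TPM in MDZ 8w and at 52.9, 54.3 and 50.3 TPM in MDZ P10. Grhpr, a glyoxylate reductase, was at 41.2, 54.5 and 40.1 TPM in MDZ 8w and at 51.3, 49.7 and 50.5 TPM in MDZ P10, and did not pass in the MDZ comparison (adjusted p = 0.32). The MDZ age changes of the 5 genes lay between -1.16 (Il18) and 0.57 (N6amt2) on the log2 scale.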

How the results depend on the processing

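For MDZ 8w against MDZ P10 the count of 5590 genes (3249 higher, 2341 lower) stayed within 1.5 times under all 11 alternatives that kept these 6 libraries, with 4872 genes under the replicate block (2794 higher, 2078 lower) and 58.1% of calls higher against 48.7% with median-of-ratios scaling. It was 1745 (911 higher, 834 lower) in one fit over all 15 sorted libraries, and with 1 library left out it ran from 3354 to 6378 (1924 to 3459 higher, 1430 to 2979 lower). Of 161 named genes that passed, 61 did not pass in the fit over all 15 libraries, 26, 31 and 27 without MDZ P10 replicates 1 to 3, and 5, 5 and 7 without MDZ 8w replicates 1 to 3. None changed sign, which the fit over all 15 libraries could not show since it leaves the difference as it is. The replicate numbers did not pair the libraries, since the correlations of same-numbered deviations were -0.03, -0.09 and 0.06.

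The Control comparison was unstable, and no call of it is used. It gave 2562 genes (1043 higher, 1519 lower), 4251 with a mean of at least 1 (3028 lower), 5683 with no filter (4451 lower), and 0 (0 higher, 0 lower) with library weights, with the replicate block and with weights by group, the last chosen after seeing the data. Without 1 Control P10 library it gave 840 to 909 (118 to 157 higher, 715 to 752 lower), without Control 8w replicate 1 9944 (4641 higher, 5303 lower), and without Control 8w replicates 2 and 3 10265 (4428 higher, 5837 lower). In these last fits Control 8w has a lone sample, whose spread is taken to equal that of Control P10.

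The difference between the age changes gave 36 genes, all higher. There were 122 with a pseudocount of 0.1, 0 with a pseudocount of 5, 67 with a mean of at least 1, 164 with no filter, 3 with quantile normalization and 17 with the replicate block, all higher. No weights gave 1781 (1323 higher, 458 lower), and Control 8w replicates 2 and 3 kept apart gave 811 (794 higher, 17 lower). With 1 MDZ or Control P10 library left out it gave 14 to 35, without Control 8w replicate 1 7215 (4493 higher, 2722 lower), and without Control 8w replicates 2 and 3 8508 (5318 higher, 3190 lower). The cause of these shifts was not tested.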

Other observations

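Clustered histone genes, a set added after their values were seen, were 68 in the files and 36 tested, of which 32 passed as higher in MDZ 8w and 0 as lower (median 1.67, beside 0.07 for all genes). Hist1h4k, a histone H4 gene, was at 17.8, 18.9 and 29.4 TPM in MDZ 8w and at 2.28, 1.31 and 1.86 TPM in MDZ P10 (log2 3.01 ± 0.27, adjusted p = 0.00037). Most transcripts of these genes end without a poly(A) tail. Their Control median was 1.42 over 32 genes.

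Small nucleolar RNA genes had 13 of 80 tested higher and 6 lower (median 0.08), and microRNA genes 10 of 112 higher and 9 lower (median -0.33). Both lists lie below the shares over all genes, 25.8% higher and 18.6% lower. Their Control medians were -4.69 over 65 genes and -3.81 over 60 genes.

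Spp1, osteopontin, was at 5.74, 19.5 and 11.1 TPM in MDZ 8w and below 1 TPM in each MDZ P10 library (log2 3.08 ± 0.46, adjusted p = 0.0024, but 0.084 in the fit over all 15 sorted libraries). In the other 8-week groups it was at 16.3, 8.54 and 5.35 TPM in RUN MDZ 8w and at 51.4, 0 and 0 TPM in Control 8w. Ttr, the choroid plexus transthyretin, was at 1.10, 18.5 and 0.832 TPM in MDZ 8w and at 2.71, 295 and 170 TPM in MDZ P10, and its groups overlapped.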
